A study of Gallus gallus with 53 samples.

Results

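Among the probe sets of a B cell microarray series, 60 rose early after crosslinking of the B cell receptor (BCR) and were still high after 60 or 90 min. They were chosen from 26866 probe sets whose mean log2 intensity over all columns exceeded 1.05, out of 38361 in the table. The choice used 6 columns only beyond that minimum: unstimulated wild type cells and wild type cells at 15, 30, 45, 60 and 90 min after 10 μg/ml anti-IgM. A probe set was kept when its largest change, d, against 0 min was a rise of at least 1 on the log2 scale (2-fold), lay at 60 or 90 min, and when at least 0.4 of it was already reached at 30 min. The rise of wild type cells at 10 μg/ml is therefore given below as a description, and the effects tested come from columns that did not choose the members. The error estimate in the tests of whole time courses was shared over all 53 columns, these 6 included. The identifiers deposited beside the values did not pair with them, so members are called by their rank of largest wild type rise, from member 1 to member 60, and no gene is named. For the same reason the B cell label could not be checked against marker genes.

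All columns came from DT40, a chicken B cell line that carries surface IgM, measured on an Affymetrix chicken genome array. The antibody M4 against IgM was added to wild type cells at 0.1, 1 or 10 μg/ml, and other wild type cells were stimulated with 1, 3 or 6 μg/ml of the ligand of CD40 (CD40L). Wild type cells pre-treated for 30 min with the MEK inhibitor U0126 (WT + Inh), and cells with a knock-in of an inactive IKKβ whose activating serines are replaced by alanine (IKKβSA), were stimulated with the highest dose of each, 10 μg/ml of M4 and 6 μg/ml of CD40L. The inhibitor concentration is 5 μM in the methods and 5 mM in the labels, and the wording of the methods leaves it unclear whether IKKβSA cells were also pre-treated. The sample titles name the inhibitor in the WT + Inh columns only. Each of the 10 courses had 1 column at each of the 5 times, and each of the 3 cell conditions had 1 unstimulated column, which makes 53. Per the labels every column combines 2 biological replicates, so no spread between replicates could be computed. Unstimulated cells were measured at 0 min only, and a change that the anti-IgM and CD40L courses share cannot be told apart from change with time alone. Column medians lay between intensities of 2.74 and 2.95, and the unstimulated wild type column had the lowest.

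Crosslinking of the BCR activates tyrosine kinases that lead to the MEK and ERK kinases on one branch and, through IKKβ, to NF-κB on another. CD40, a receptor of the TNF receptor family, reaches NF-κB through TRAF adaptor proteins. U0126 blocks the step from MEK to ERK, and an IKKβ that cannot be phosphorylated on its activation loop cannot signal to NF-κB in the usual way. Transcripts that respond to such signals range from immediate early ones, which peak and decay, to ones that accumulate while the signal lasts.

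In wild type cells at 10 μg/ml anti-IgM the 60 members rose by 1.38 on the log2 scale at their largest (median, range 1.00 to 6.64). The largest rise fell at 90 min in 46 members and at 60 min in 14. Of all probe sets tested, 0.767% had a largest change of at least 2-fold upward in this course, and the 60 members are 0.223%. Only 1 member had reached 2-fold by 15 min, against 18 at 30 min and 34 at 45 min. The median change was 0.26, 0.77, 1.09, 1.25 and 1.38 at 15, 30, 45, 60 and 90 min, and 34 members rose at every step. Members that peaked at 60 min kept nearly all of the rise, with a median change from 60 to 90 min of -0.11 and a lowest one of -0.33. A rise of 4-fold or more was found in 12 members, while 39 stayed under 3-fold. At 30 min the members had covered a median of 0.55 of their largest rise, and up to 0.99.

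The rule's thresholds cut through a continuous range. The 3 members nearest the limit on the 30 min share had covered 0.409, 0.410 and 0.415 of their rise, and the 3 nearest probe sets left out had covered 0.375, 0.375 and 0.367. The smallest rises kept were 1.004, 1.023 and 1.025, and the nearest left out were 0.9997, 0.9993 and 0.9974. The members with the lowest mean log2 intensity had 1.36, 1.43 and 1.62 (members 9, 7 and 56). That mean includes the columns in which the members rose. In unstimulated wild type cells the intensities of members 9 and 7, 1.79 and 1.72, lay below the minimum level. Without the minimum the rule kept the same 60 probe sets.

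The members differed widely in brightness. In unstimulated wild type cells their intensities ran from 1.72 to 461 with a median of 18.8, while the median of all probe sets tested was 4.91. The brightest were member 16 at 461, member 44 at 436 and member 14 at 294, and the dimmest were member 7 at 1.72, member 9 at 1.79 and member 56 at 1.89. In all, 12 members were below an intensity of 5 and 10 were above 100. The scatter of the columns about smooth time curves gave a standard error for a difference of 2 columns of 0.19 on the log2 scale (median over members, 0.08 to 0.64), against 0.16 over all probe sets tested.

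**Figure D1:**
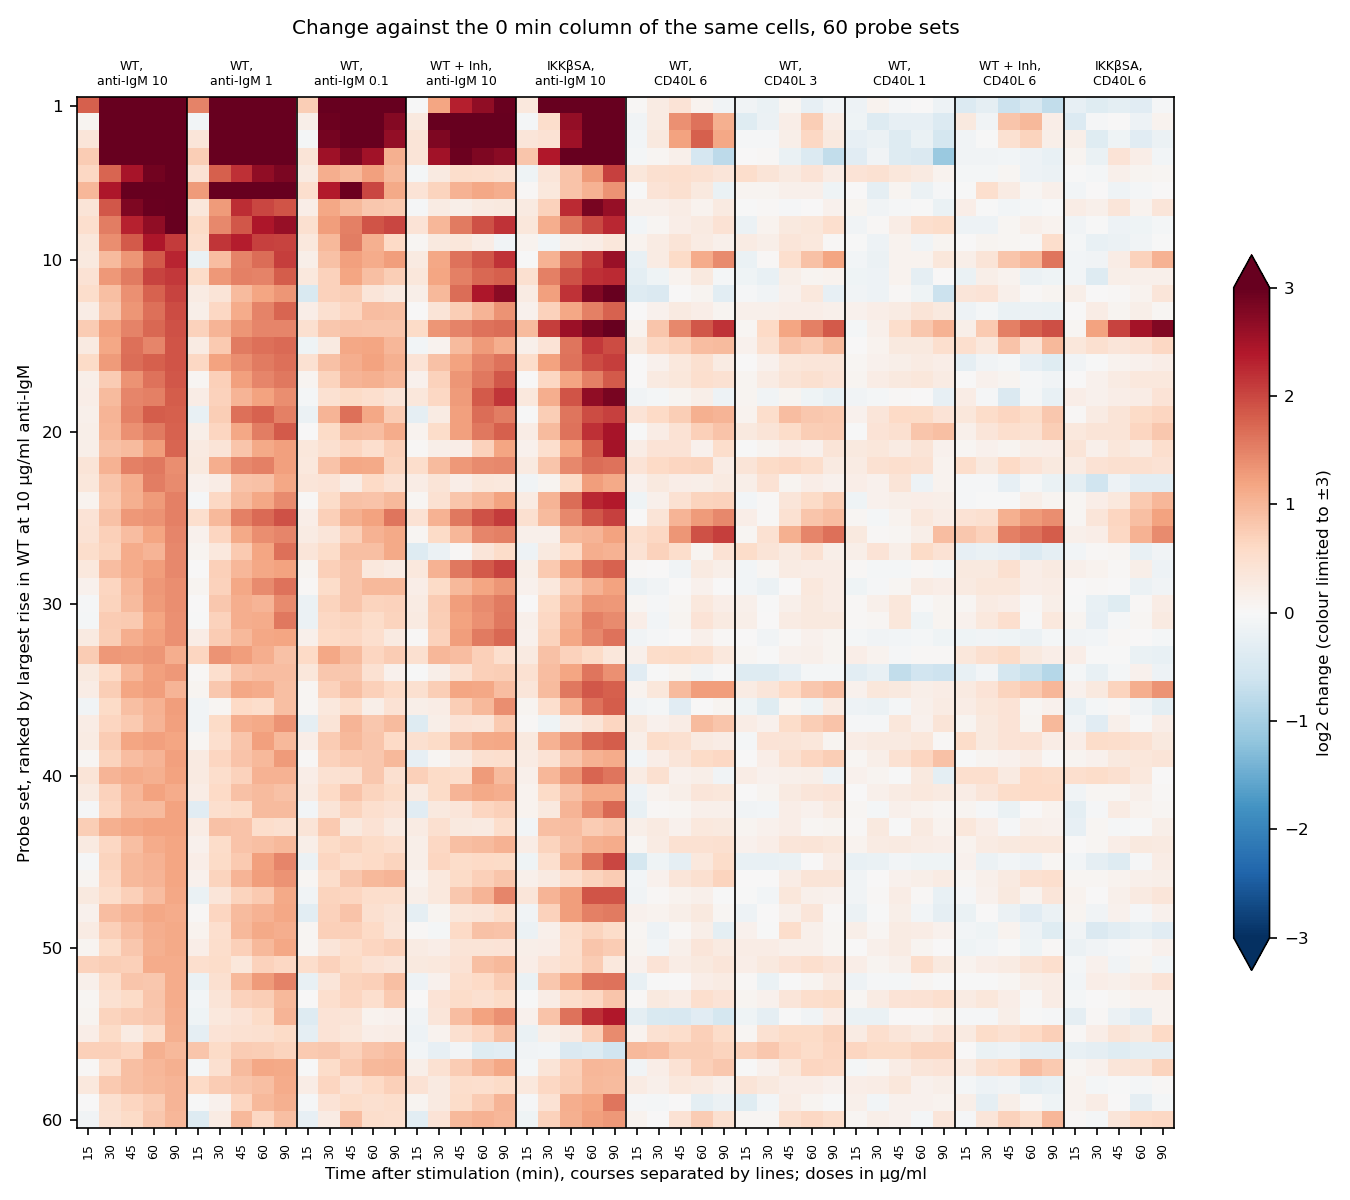
Log2 change against the unstimulated column of the same cells for the 60 probe sets (rows, ranked by largest wild type rise) in all 10 courses (blocks of 5 columns, 15 to 90 min, doses in μg/ml). Red stands for a rise in most members of the 5 anti-IgM blocks, and in the 5 CD40L blocks the strong red is limited to a few rows, among them members 14 and 26.

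Member 1 showed the largest rise. At 10 μg/ml its intensity went from 4.18 at 0 min to 14.4, 170, 354, 416 and 395 at 15, 30, 45, 60 and 90 min. In WT + Inh cells it went from 4.11 to 4.07, 9.30, 20.6, 26.01 and 32.2. In IKKβSA cells it went from 4.02 to 5.03, 92.4, 216, 260 and 279. The rise in IKKβSA cells was 0.32 against 1.79 in wild type cells at 15 min, and 6.02 against 6.64 at 60 min. The WT + Inh course reached 2.66 at 60 min. After 6 μg/ml CD40L the intensity in wild type cells stayed between 3.85 and 5.58.

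Members 2 and 3 had their lowest rise in IKKβSA cells instead. Their courses in WT + Inh and IKKβSA cells were not called different (adjusted p = 0.490 and 0.238, limma). Member 2 went from 4.61 to 4.88, 62.0, 180, 237 and 214 in wild type cells and from 3.39 to 4.14, 31.4, 112, 153 and 149 in WT + Inh cells. In IKKβSA cells it went from 2.50 to 2.39, 3.60, 15.4, 32.5 and 37.2. Its rise at 60 min was 5.68, 5.499 and 3.70 in the 3 cell conditions, and the IKKβSA cells showed little change until 45 min. Member 3, which stands in the next row of the table (rows 15256 and 15257), rose by 5.40, 5.19 and 3.73, and the profiles of the pair correlated at r = 0.995 over the 47 columns the rule did not use. Whether both measure the same transcript cannot be told from the identifiers.

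Member 4 started at 7.67 in wild type cells and at 3.33 and 3.03 in WT + Inh and IKKβSA cells. Its intensity reached 162 at 90 min in wild type cells, 21.7 with the inhibitor and 86.1 in IKKβSA cells. In WT + Inh cells its highest column was 25.5, at 45 min. Member 8 was bright throughout and rose from 95.6 to 826 in wild type cells, from 88.5 to 396 in WT + Inh cells and from 100.4 to 482 in IKKβSA cells at 90 min. Both altered conditions retained a rise of over 2 on the log2 scale for this member, at 2.16 and 2.26 against 3.11.

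Members 5 and 6, with low starting levels, rose less in both altered conditions than in wild type cells. Member 5 reached 24.7 from 1.89 in wild type cells, 3.15 from 2.31 in WT + Inh cells and 9.46 from 2.27 in IKKβSA cells at 90 min. Member 6 reached 26.4 from 2.59, 4.40 from 2.06 and 6.20 from 2.45 in the same order. Member 10 behaved differently, with a rise of 2.28 in wild type cells, 2.16 with the inhibitor and 2.58 in IKKβSA cells, from starting intensities of 25.2, 14.2 and 22.3.

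**Figure D2:**
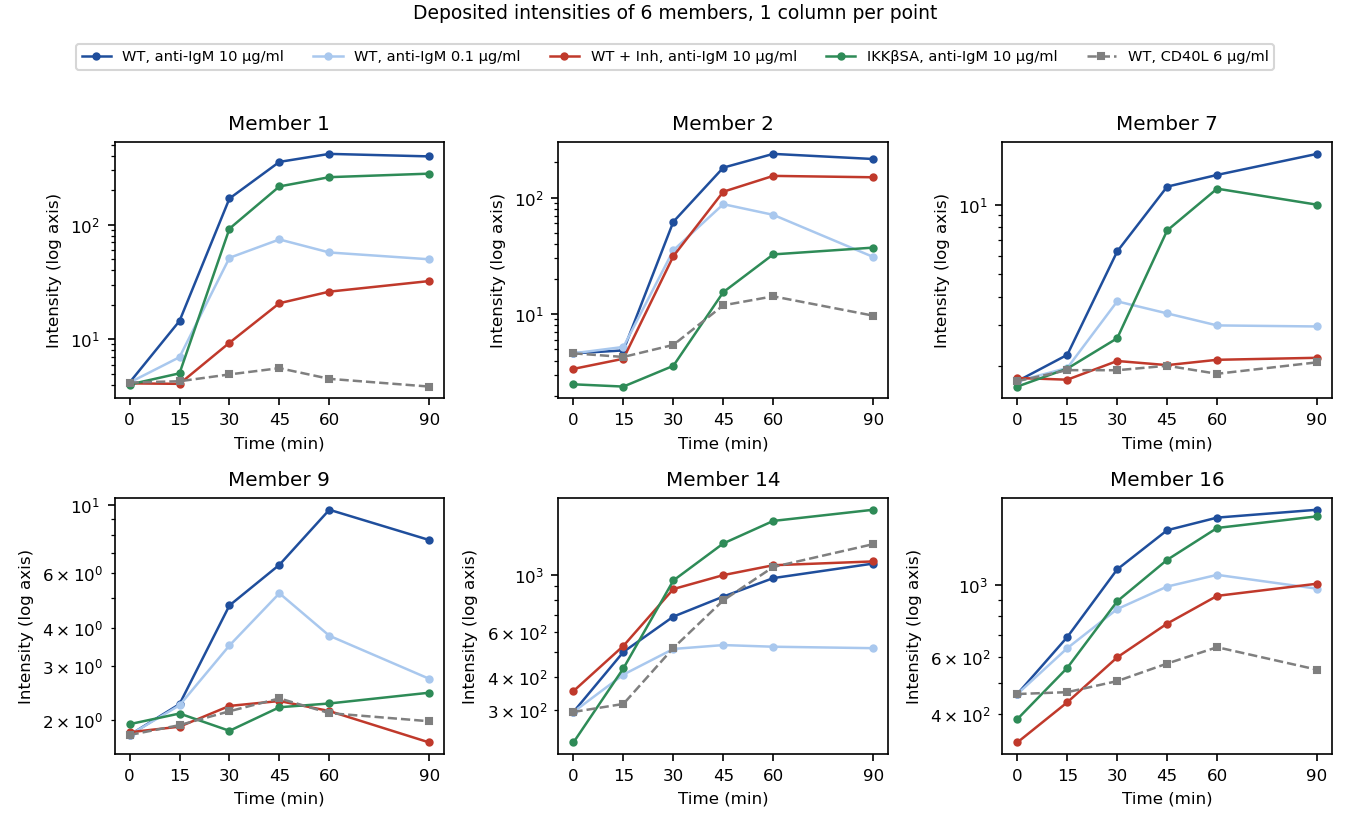
Deposited intensity (log axis) against time for members 1, 2, 7, 9, 14 and 16, with 1 column per point. The wild type course at 0.1 μg/ml anti-IgM is drawn as well, and the following refers to 10 μg/ml. In members 1 and 7 the WT + Inh course (red) lies far below the wild type and IKKβSA courses from 45 min on. In member 2 the IKKβSA course (green) is the lowest of these, and in member 9 both altered conditions stay low. In member 14 the wild type CD40L course (dashed) ends above the wild type and WT + Inh anti-IgM courses and below the IKKβSA one.

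The anti-IgM courses of WT + Inh and IKKβSA cells were not used to choose the members, and each was tested for change over time. The fitted baseline was 1 per cell condition, shared by its anti-IgM and CD40L courses. Only the direction was taken directly against the unstimulated column. In WT + Inh cells 54 of 60 members were called upward and 0 downward (adjusted p under 0.05, limma F test of a 3 degree of freedom spline of time). Of all probe sets tested, 6.75% were called upward and 4.95% downward in that course. In IKKβSA cells 57 members were called upward and 0 downward, where 7.43% of all probe sets were called upward and 2.97% downward. Both courses called 53 members upward, against 3.58% of all probe sets, WT + Inh alone called 1, IKKβSA alone 4 and neither 2. A call combined with a rise of at least 2-fold was found for 37 members in both, for 1 in WT + Inh alone, for 11 in IKKβSA alone and for 11 in neither. Over all probe sets tested the shares were 0.495%, 0.119%, 0.614% and 98.8%. For comparison, 71 of the 93 probe sets with a late onset in wild type cells and 45 of the 53 with a peak before 60 min were called upward in WT + Inh cells, and 82 and 49 were in IKKβSA cells. At an unadjusted p under 0.05 no member was downward in WT + Inh cells and 1, member 56, was in IKKβSA cells. Shares over all probe sets are not given at this unadjusted threshold. The p-values rest on scatter about smooth curves and not on replicates.

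The median change of the members in WT + Inh cells was 0.18, 0.47, 0.91, 1.03 and 1.13 at 15, 30, 45, 60 and 90 min. In IKKβSA cells it was 0.14, 0.64, 1.15, 1.52 and 1.63. The medians over all probe sets tested stayed within 0.03 of 0 at each of these times. At 30 min both medians were below the 0.77 of wild type cells, and at 60 and 90 min the IKKβSA median was above, and the WT + Inh median below, the wild type values of 1.25 and 1.38. At the time of the wild type peak, 46 members rose less in WT + Inh than in wild type cells (median difference -0.26), and 8 rose less by 2-fold or more. In IKKβSA cells 29 members rose less (median difference 0.06), 6 by 2-fold or more, and 4 rose more by 2-fold or more. These differences from wild type are descriptions, since the wild type values chose the members.

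The 6 members not called in WT + Inh cells were 7, 9, 23, 43, 45 and 56, and the 3 not called in IKKβSA cells were 9, 37 and 56. Of those 6, 5 had an intensity below 5 in unstimulated wild type cells, as did 7 of the 54 members that were called. Member 43 went from 3.53 to 4.20, 4.90, 4.33, 4.27 and 5.06 in WT + Inh cells, a rise of 0.27 at 60 min against 1.202 in wild type cells (limma, adjusted p = 0.395). Member 9 went from 1.79 to 9.64 at 60 min in wild type cells, while its 6 columns lay between 1.70 and 2.31 in WT + Inh cells and between 1.85 and 2.46 in IKKβSA cells. The adjusted p (limma) was 0.386 and 0.669, so neither altered condition showed a rise beyond the scatter. Member 51 had the third smallest IKKβSA change at its wild type peak time, 0.32 against 1.11 in wild type cells, from 2.52 to 3.15. It was nevertheless called upward in IKKβSA cells, where its change was 0.76 at 60 min.

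Member 56 differed from the others in its starting value. Its unstimulated wild type intensity was 1.89, while the other 52 columns lay between 2.54 and 3.94, the unstimulated WT + Inh and IKKβSA columns at 3.28 and 3.80 among them. Its change at 60 min was 1.06 in wild type cells, -0.37 with the inhibitor and -0.39 in IKKβSA cells, and its rise at 10 μg/ml rests on the single low column at 0 min. In 3 members the unstimulated wild type column was the lowest of all 53. With the mean of the 3 unstimulated columns as reference, 56 of the 60 members met the rule, and members 27, 53, 55 and 56 did not. Unstimulated levels themselves were lower than in wild type cells for 44 members in WT + Inh cells (median -0.11) and for 39 in IKKβSA cells (median -0.11), where all probe sets had medians of 0.01 and 0.03. The difference reached 2-fold for members 4 and 34 in WT + Inh cells and for members 3, 4 and 52 in IKKβSA cells.

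**Figure D3:**
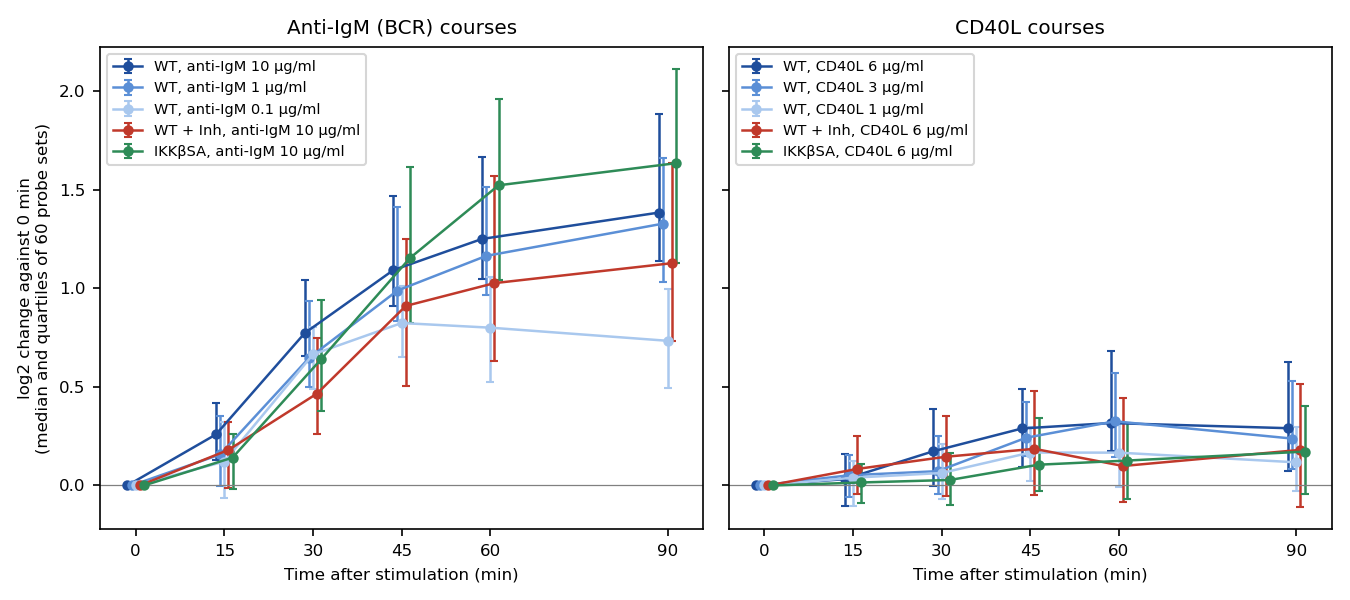
Median log2 change of the 60 probe sets against 0 min of the same cells (points) with their quartiles (bars), anti-IgM courses left and CD40L courses right, offset slightly in time for legibility. The 0.1 μg/ml course stops rising after 45 min at 0.82, the other 4 anti-IgM courses rise to 90 min, and all CD40L medians stay at or below 0.33.

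The WT + Inh and IKKβSA anti-IgM courses were compared with each other directly, since neither entered the rule. The course of 15 members differed (adjusted p under 0.05, limma), all lower in WT + Inh cells, where 0.904% of all probe sets were called lower and 0.104% higher. Without the 45 min columns 8 members were called, and without the 90 min columns 9. Of these 15 members, 12 were called upward in both courses and 3 in IKKβSA cells only. The largest difference of the changes ran from -0.46 (member 16) to -3.42 (member 1), and it reached 2-fold in 9 members. Among the late onset and early peaking probe sets, 19 of 93 and 15 of 53 were called lower in WT + Inh cells. At the wild type peak time 41 of the 60 members rose less in WT + Inh than in IKKβSA cells, with a median difference of -0.42. No share over all probe sets is given for this count. The median of the largest difference was -0.49 for the members, -0.51 for late onset, -0.64 for early peaking and 0.09 for all probe sets. The lower rise was thus not particular to the members. Over all probe sets the median change at 90 min was -0.004 in WT + Inh and -0.02 in IKKβSA cells.

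Member 7 had the lowest adjusted p of this comparison. Its intensity in WT + Inh cells was 1.78 at 0 min and 1.75, 2.10, 2.02, 2.13 and 2.17 afterwards. In IKKβSA cells it went from 1.63 to 1.95, 2.64, 7.74, 11.7 and 10.0. Wild type cells went from 1.72 to 2.24, 6.28, 12.0, 13.5 and 16.6, so that no WT + Inh column exceeded 2.17 while the other courses were above 7 by 45 min. The difference between the altered conditions was -2.59 at its largest (adjusted p = 6.8e-08, limma). The SE of a difference of 2 columns, smaller than that of a difference of changes, was 0.24. The WT + Inh intensities of this member lay near the minimum level used in the choice.

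Member 14, among the brightest, differed through a larger rise in IKKβSA cells. It went from 224 to 433, 949, 1321, 1615 and 1785 in IKKβSA cells and from 354 to 529, 879, 996, 1088 and 1125 in WT + Inh cells. In wild type cells it went from 294 to 502, 688, 822, 970 and 1104. The rise at 90 min was 3.00 in IKKβSA, 1.67 in WT + Inh and 1.91 in wild type cells, and the difference between the altered conditions was -1.33 (adjusted p = 6.4e-07, limma). IKKβSA cells had both the lowest start and the highest end of the 3.

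Member 24 showed the third lowest adjusted p. Its intensity went from 22.8 to 24.0, 31.2, 40.5, 45.8 and 52.96 in WT + Inh cells and from 21.9 to 26.1, 44.5, 70.2, 106 and 113 in IKKβSA cells. The courses started level and separated from 30 min on, with a largest difference of -1.27 (adjusted p = 2.5e-05, limma). No member was called higher in WT + Inh than in IKKβSA cells. Members 2 and 3 had the largest differences in that direction, 2.68 and 2.36, with adjusted p (limma) of 0.490 and 0.238, where the standard error of a difference of 2 columns, smaller than that of a difference of changes, was 0.64 and 0.52. At an unadjusted p under 0.05, the largest difference of 4 members lay in that direction (2, 3, 22 and 51) and that of 30 in the other. No share over all probe sets is given for these unadjusted counts. Member 22 rose more in WT + Inh cells at 15 and 30 min only, and at 90 min it rose by 1.44 there and by 1.64 in IKKβSA cells.

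**Figure D4:**
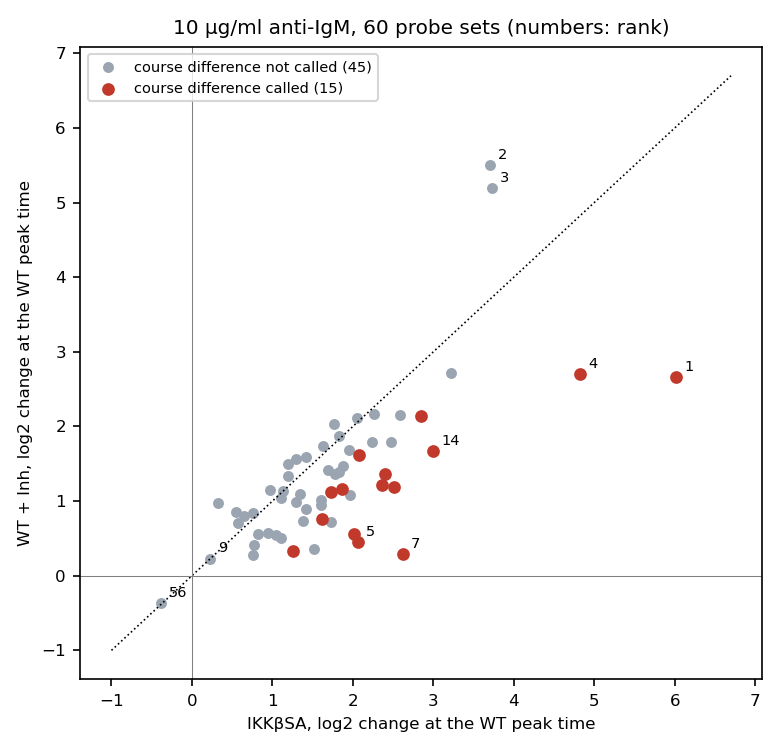
Log2 change of each member at its wild type peak time after 10 μg/ml anti-IgM in WT + Inh cells (vertical) against IKKβSA cells (horizontal), with equality dotted. The 15 members whose courses differed (red) lie to the right of the line, and members 2 and 3 lie above it without being called.

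Member 12 and member 4 completed the extremes of the altered conditions. Member 12 rose by 2.72 in WT + Inh cells and by 3.22 in IKKβSA cells against 2.03 in wild type cells, from 5.85, 6.71 and 9.53 at 0 min to 38.4, 62.7 and 39.03 at 90 min. At the members' own wild type peak times, only members 2 and 3 rose more than member 12 in WT + Inh cells. In IKKβSA cells the 3 largest changes at the wild type peak time were those of members 1 (6.02), 4 (4.83) and 3 (3.73).

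The form of the time course was then asked of the other anti-IgM courses. At 1 μg/ml in wild type cells 49 members had a largest change that was a rise of at least 2-fold, against 0.718% of all probe sets, and 34 met the full profile of an early onset and a peak at 60 or 90 min (0.179%). At 0.1 μg/ml 23 rose by 2-fold (0.335% of all probe sets), 9 with the full profile (0.0484%) and 12 with a peak before 60 min. In WT + Inh cells 38 rose by 2-fold (0.625%) and 18 kept the profile (0.216%), while 18 others had a late onset. In IKKβSA cells 48 rose by 2-fold (1.11%), 24 with the profile (0.335%) and 24 with a late onset. The profile was not particular to the members. Of the 53 probe sets that peaked early in wild type cells, 14 showed it in WT + Inh and 19 in IKKβSA cells. Of the 93 with a late onset in wild type cells, 6 and 4 did. The median change from 30 to 90 min was 0.63 and 0.66 at 10 and 1 μg/ml, 0.03 at 0.1 μg/ml, 0.67 with the inhibitor and 0.89 in IKKβSA cells. The wild type courses share the unstimulated column with the rule.

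Dose was tested between 1 and 0.1 μg/ml anti-IgM, whose 10 columns did not choose the members. With time as a factor, 30 members were higher at 1 μg/ml and 0 lower (adjusted p under 0.05, limma), where 0.882% of all probe sets were called higher and 0.770% lower. The median difference of the 60 members was 0.27, and it ran from 0.20 to 1.53 among the 30 called. Of the first 10 members 9 were called. No member was lower at an unadjusted p under 0.05 either. The late onset and early peaking probe sets had 13 of 93 and 35 of 53 called higher. For member 1, the intensities after 15 to 90 min were 11.7, 128, 212, 233 and 206 at 1 μg/ml and 6.96, 51.4, 74.3, 57.2 and 49.9 at 0.1 μg/ml. Every time point was higher at the higher dose, and the mean difference was 1.53 ± 0.11 (SE, 5 times, adjusted p = 2.0e-09, limma).

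The dose difference widened with time. The median of 1 minus 0.1 μg/ml over the members was 0.05, 0.09, 0.25, 0.46 and 0.60 at 15, 30, 45, 60 and 90 min. The number of members higher at 1 μg/ml was 35, 37, 55, 59 and 59, while 48.7% to 51.9% of all probe sets at 15, 60 and 90 min, and 46.6% and 45.8% at 30 and 45 min, were higher. In 27 members all 5 times were higher at 1 μg/ml, as in 4.95% of all probe sets. Member 2 was near-equal at 15 min, at 4.32 and 5.23, and separated to 163 and 31.0 at 90 min. Member 14 had 815 and 519 at that time. Between 10 and 1 μg/ml the median difference was 0.20 at 90 min, with 44 members higher at 10 μg/ml, a comparison that includes columns of the rule. Over all probe sets that median was -0.02, and 45.5% were higher at 10 μg/ml.

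**Figure D5:**
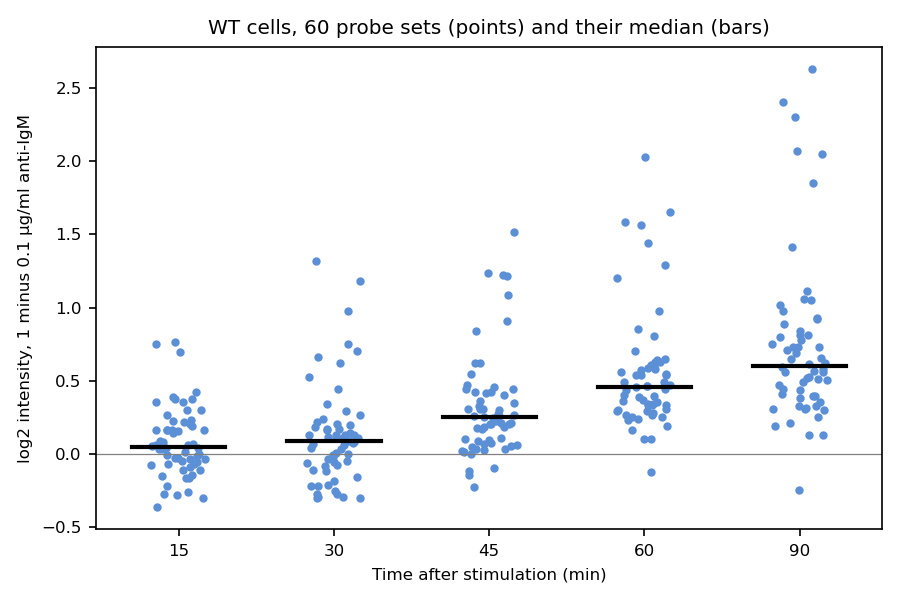
Difference in log2 intensity between 1 and 0.1 μg/ml anti-IgM for the 60 probe sets (points) at each time in wild type cells, with the median as a bar. The median moves from 0.05 at 15 min to 0.60 at 90 min, when 59 of the 60 points lie above 0.

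Continued movement after 15 min was tested by a slope over time common to the 0.1 and 1 μg/ml courses. It was upward in 41 members and downward in 0 (adjusted p under 0.05, limma), against 3.66% and 4.54% of all probe sets, with a median slope of 0.32 on the log2 scale per 30 min, and 0 were downward at an unadjusted p under 0.05 as well. Without the 15 min columns 18 members were called. The common slope does not show that both doses kept rising. From 30 to 90 min the median change was 0.66 at 1 μg/ml and 0.03 at 0.1 μg/ml. At 0.1 μg/ml 34 members were lower at 90 than at 60 min, and at 1 μg/ml 19 were. The late onset probe sets had 77 of 93 called upward, and the early peaking ones had 4 of 53 upward and 12 downward.

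After CD40L the members moved far less than after anti-IgM, a contrast partly built in, since the rule required a rise after anti-IgM. In wild type cells at 6 μg/ml the median change was 0.03, 0.17, 0.29, 0.32 and 0.29, and 8 members rose by at least 2-fold, against 0.212% of all probe sets, 1 of them with the early onset profile (0.0707%). Those 8 were members 2, 3, 10, 14, 19, 25, 26 and 35. The largest changes were 2.16 in member 14, 2.07 in member 26 and 1.79 in member 3. The lowest were -0.78 in member 4, -0.54 in member 54 and -0.45 in member 12. These wild type changes share the unstimulated column with the rule. The median change at 90 min after 6 μg/ml was similar in the late onset (0.27) and early peaking (0.30) probe sets.

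Member 14 went from 294 to 315, 520, 795, 1071 and 1313 after 6 μg/ml CD40L, to 308, 444, 665, 833 and 1058 after 3 μg/ml and to 281, 325, 421, 517 and 602 after 1 μg/ml. From 30 min on the columns were ordered by dose, and the 90 min level at 6 μg/ml exceeded the 1104 reached after 10 μg/ml anti-IgM. Member 26 went from 5.64 to 8.06, 8.62, 14.05, 21.3 and 23.6 after 6 μg/ml CD40L and reached 15.6 after 10 μg/ml anti-IgM. Member 54 in contrast went from 16.6 to 13.6, 12.2, 12.0, 13.1 and 11.5, below its start at every time, and to 35.4 after anti-IgM.

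The CD40L courses of the altered cells, independent of the rule, gave calls for fewer members. In WT + Inh cells 17 members were called upward and 2 downward, members 16 and 34 (adjusted p under 0.05, limma), where 4.24% and 2.75% of all probe sets were. In IKKβSA cells 13 were called upward and 0 downward, against 1.96% and 1.49%. The sets shared 9 members, of 17 and of 13, and 39 members were called upward in neither. Of all probe sets tested, 0.927% were called upward in both and 94.7% in neither. At an unadjusted p under 0.05, 3 members (11, 33 and 50) had a fall and 19 a rise as their largest change in IKKβSA cells. In WT + Inh cells 4 had a fall and 19 a rise. The IKKβSA change at 90 min was -0.23 in member 33, but 0.16 in member 11 and 0.14 in member 50. No share over all probe sets is given for these unadjusted counts. The rise reached 2-fold in 4 members for WT + Inh (0.599% of all probe sets), 1 of them with the early onset profile (0.313%), and in 6 members for IKKβSA (0.238%), again 1 with the profile (0.0670%). Without the 90 min columns 10 and 6 members were called upward. Member 14 went from 354 to 401, 613, 1002, 1211 and 1360 in WT + Inh cells and from 224 to 235, 516, 907, 1268 and 1533 in IKKβSA cells, with adjusted p (limma) of 1.4e-16 and 1.2e-21. Member 14 thus rose after CD40L in all 3 cell conditions. It also rose after anti-IgM in each, and the altered cells had 1 CD40L dose only. Change with time alone cannot be told apart there.

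Within each altered condition the anti-IgM and CD40L courses were set against each other. In WT + Inh cells 51 members were higher after anti-IgM and 1 after CD40L, against 8.63% and 12.1% of all probe sets (adjusted p under 0.05, limma). By the sign of the largest difference, 3 members (9, 26 and 55) lay on the CD40L side at an unadjusted p under 0.05. Of these, member 9 had risen more after CD40L at 90 min only, and member 55 at 15 and 30 min only. The unadjusted count has no share over all probe sets beside it. In IKKβSA cells 56 were higher after anti-IgM and 0 after CD40L, against 9.77% and 5.96%, with 0 also at an unadjusted p under 0.05. The exception was member 26, which in WT + Inh cells went from 4.89 to 5.08, 7.24, 9.83, 13.5 and 13.9 after anti-IgM and to 8.58, 7.91, 13.9, 15.1 and 17.2 after CD40L. Its largest difference was -0.76 (adjusted p = 0.020, limma). At 90 min the median difference between the stimuli was 0.76 with the inhibitor and 1.38 in IKKβSA cells. In WT + Inh cells 62 of the 93 late onset probe sets were called higher after anti-IgM and 5 after CD40L. Of the 53 early peaking ones 39 and 0 were. In IKKβSA cells the counts were 80 and 2 for late onset and 47 and 0 for early peaking probe sets.

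The CD40L dose was tested over the 15 stimulated wild type CD40L columns. A slope on log2 dose was called upward in 20 members and downward in member 54 (adjusted p under 0.05, limma), where 2.04% and 3.18% of all probe sets were. The median slope was 0.04 per doubling of dose. The highest was that of member 3, at 0.45 ± 0.07 (SE, 15 columns, adjusted p = 7.7e-04, limma). All 8 members that rose by 2-fold at 6 μg/ml were among the 20, but the 6 μg/ml columns also entered the slope, so this overlap is partly built in. Of the 20, 11 were also called higher at 1 than at 0.1 μg/ml anti-IgM, as were 30 of the 60 members and 0.882% of all probe sets. The early peaking probe sets had 38 of 53 called upward and the late onset ones 11 of 93. Leaving out the 45, 60 or 90 min columns reduced the 20 members to 10, 6 and 11. A slope over time from 15 to 90 min was called upward in 26 members and downward in 2, against 10.2% and 5.03% of all probe sets.

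The profiles of the members over the 47 columns not used by the rule were alike for many pairs. Of 1770 pairs, 109 had a Pearson r above 0.9 across these columns, and the median r was 0.73. The columns are points of shared time courses and not independent samples, so r is given as a description. Likeness is also partly built in, since the rule required a rise after anti-IgM and the 47 columns include the other anti-IgM courses. No r is given for other probe sets, so likeness particular to the members is not shown. After members 2 and 3 the most alike were members 11 and 16 and members 30 and 31, both with r = 0.983. Members 30 and 31 also stand in neighbouring rows (18519 and 18518), as members 15 and 19 do (15021 and 15020). Member 16, the brightest in unstimulated wild type cells, went from 461 to 691, 1116, 1472, 1609 and 1701 in wild type cells, from 327 to 435, 598, 760, 925 and 1008 in WT + Inh cells and from 386 to 555, 890, 1193, 1495 and 1624 in IKKβSA cells. All 3 courses rose at every step, and the rises of 1.88, 1.62 and 2.07 at 90 min were each over 2-fold.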

How the data were processed

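Per the labels, each column combines 2 biological replicates hybridised to the Affymetrix chicken array; the authors normalised with RMA and deposited linear intensity values for 38361 probe sets in 53 columns. No source used here says how the replicates of a column were combined. Depth does not apply to arrays, and the number of columns limits the precision.

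Values were transformed to log2, and tests covered the 26866 probe sets whose mean exceeded 1.05. The deposited identifiers were checked against the values. Bright rows with a shared symbol had a median r of 0.24, against 0.076 for as many random pairs. Of 267 identifiers that the study lists in rising clusters, 203 were tested, with a median 90 min change of 0.023 against 0.024 for all. Names were therefore not used.

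In limma 3.58.1 (R 4.3.3) 1 natural cubic spline of time per course (3 degrees of freedom, knots at 25 and 50 min, boundaries 0 and 90 min) and 1 intercept per cell condition were fitted to all 53 columns (20 residual degrees of freedom), with moderated F tests and a trend over intensity. Doses and times within wild type cells were tested by linear terms with the other as a factor. Direction was that of the largest change, and p-values were adjusted (Benjamini-Hochberg) over all rows. Differences of 2 courses were tested on their spline coefficients, and the sizes given compare changes against each condition's own 0 min column. The code was tested on simulated data. The members and the rule for those given in full (largest and smallest changes, brightest and dimmest, nearest each threshold, lowest adjusted p) were chosen with earlier results of these data known, and further members are named where a short count is listed out, after their values were seen. Alternatives were median centring, 2 spline degrees of freedom, no filter, only the 47 columns outside the rule, each time left out, a 2-fold minimum and other thresholds of the rule.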

Additional observations from a re-analysis of the deposited data

Results flagged for a closer look

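The anti-IgM course differed between WT + Inh and IKKβSA cells for 15 members by the limma test of the difference itself, each with a smaller rise in WT + Inh cells. The largest difference of the log2 changes was -3.42 in member 1, -2.13 in member 4, -1.61 in member 5 and -2.59 in member 7. It was -1.33 in member 14, -0.46 in member 16, -0.82 in member 18, -1.32 in member 21 and -0.92 in member 23. It was -1.27 in member 24, -0.86 in member 35, -0.66 in member 38, -1.45 in member 45, -1.0 in member 52 and -1.04 in member 54. Of all probe sets tested, 0.904% differed in this direction. Leaving out the 45 min columns gave 8 such members, and leaving out those at 90 min gave 9. Each value rests on 1 column per time and on the single unstimulated column of each condition. In member 52 the unstimulated IKKβSA column was itself lower than the wild type one by 1.69, and in member 54 the wild type rise (1.09) was below both others (1.37 in WT + Inh and 2.41 in IKKβSA cells). Their part in the differences was not tested.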

How the results depend on the processing

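The calls for the anti-IgM courses of WT + Inh and IKKβSA cells stayed within 1.5 times under every alternative run, with 48 to 55 and 56 to 58 members when 1 time was left out. Leaving out 1 time gave 10 to 22 members (17 as reported) for CD40L in WT + Inh cells and 6 to 15 (13) in IKKβSA cells. It gave 8 to 19 (15) for WT + Inh against IKKβSA, 6 to 20 (20) for CD40L dose and 18 to 50 (41) for the time slope at 0.1 and 1 μg/ml. The lowest values came without the 90 min columns for both CD40L courses, the 45 min columns for WT + Inh against IKKβSA (9 without 90 min), the 60 min columns for CD40L dose and the 15 min columns for the slope. A 2-fold minimum left 4, 6, 9 and 27 members for CD40L in WT + Inh cells, CD40L in IKKβSA cells, WT + Inh against IKKβSA, and anti-IgM against CD40L in WT + Inh cells (52 called). The rule kept 113 probe sets with a smallest rise of 0.8, and 52 after median centring, all of them members. The WT + Inh median at 90 min moved from 1.13 to 1.34 for the 48 members with a mean log2 above 3. The other 101 recomputed values kept their direction and lay within 1.5 times or the stated spread; the causes of the changes were not tested. No paired analysis was possible because each group has 1 column and the labels give no replicate numbers shared across groups. With 1 column per time, spread between cultures is unknown, and dim members have the least signal over background.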
